A study of Mus musculus with 7 samples.

Results

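Small nucleolar RNAs (snoRNAs) were examined as a group of 74 genes among the 22180 genes that carry 1 symbol on the array. A gene was a member when the platform table gave its feature exactly 1 symbol that begins with Snora or Snord, and Rnu3a was added. A gene with several such features was represented by the one whose signal averaged highest over the arrays. The sets follow the prefix of the symbol. Rnu3a encodes the U3 RNA, which is itself a C/D RNA, but its symbol has neither prefix. It was kept apart from both sets, so the C/D set here means the Snord genes. The members were 26 H/ACA genes (Snora), 47 C/D genes (Snord) and Rnu3a. Of these, 57 passed the signal filter used for testing (24 H/ACA, 32 C/D and Rnu3a), and 17 read below it.

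Both classes of snoRNA work in the nucleolus as the RNA part of a ribonucleoprotein and find their target by base pairing. H/ACA RNAs mostly guide the conversion of uridine to pseudouridine in ribosomal RNA, and C/D RNAs mostly guide methylation of the ribose. A few members of each class are needed instead for the cuts that free the mature ribosomal RNAs from their precursor. In mammals most snoRNAs lie in introns of host genes, many of which encode ribosomal proteins or nucleolar proteins or are non-coding RNAs, and are cut out of the spliced intron, while a few such as U3, U8 and U13 have promoters of their own.

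The data came from whole skeletal muscle of mice, profiled on 1-colour Affymetrix gene arrays. Comparisons were made between 3 groups: wild-type (WT) mice aged 2 to 3 months (young WT, 3 arrays, replicates 1 to 3), wild-type mice aged 24 months (aged WT, 2 arrays, replicates 2 and 3) and MISR mice aged 24 months (aged MISR, 2 arrays, replicates 1 and 2). MISR mice carry a transgene for an IκB super-repressor, an inhibitor of NF-κB, under the muscle creatine kinase promoter, so that the block acts in muscle fibers and not in satellite cells or other cells of the tissue. The labels name no treatment. The WT mice came from commercial colonies and the MISR mice were bred in house, so source and genotype cannot be told apart, and neither the muscle nor the sex of the mice is stated. The question addressed was which transcripts of the aged muscle depend on NF-κB activity in its fibers. Values are the authors' RMA signals on the log2 scale, given in each sentence in the order of the replicate numbers, and a difference of 1 is a 2-fold difference. The labels do not say that each array is a separate animal, so the p-values measure the spread between these arrays.

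The signal filter kept 13364 genes for testing, those that reached the array's overall median in 2 or more arrays. The groups were fitted together in limma, with Benjamini-Hochberg adjustment over these 13364 genes and calls at an adjusted p under 0.05. Over the 7 arrays the medians of all 41345 features lay between 5.86 and 5.93. A list of 10 skeletal muscle markers had array medians of −0.04 to 0.04 relative to each gene's mean of the group means, but 3 of the 10 (Myh2, Myh1 and Mb) differed more between arrays and are given with the other marker lists. The aged MISR arrays were unlike each other: over the 13364 genes tested, differences between the pair had a standard deviation of 0.279 (log2), while those between the aged WT arrays had 0.209 and those between young WT arrays 0.128 to 0.151.

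Of the 74 members, 70 lie within the RefSeq span of another gene, taken here as the host (the table used gives no strand). Among members above the filter, 5 hosts carry more than 1. The sequences around the annotated starts of these hosts are shown because several snoRNA genes of this report are made from each of these transcripts. Each runs from 20 bases before the start to 10 bases from it, 5′ to 3′, in RefSeq's GRCm38.p6 build, with the longest run of C and T that reaches to within 10 bases of the start in capitals.
Snhg12 (chr4:132308658-132308687, plus strand): gtgcaggccgttctcagTCCTTTCTCgctt
Snhg3 (chr4:132353677-132353706, minus strand): aggcatagtcgaccacgcctgaCTTCCggg
Ncl (chr1:86359446-86359475, minus strand): cggttggCTCCggggacggacgcgagctct
2410006H16Rik (chr11:62602857-62602886, plus strand): ggcgctcacgcgccgTCTTTCTCTgcggcc
Kansl2 (chr15:98534260-98534289, minus strand): aggcggagcagCCagagggcaagctgcgcg
Runs that begin at the start itself are the hallmark of terminal oligopyrimidine genes, the class to which ribosomal protein genes belong. The runs shown began at −3 (Snhg12), 2 (Snhg3), −13 (Ncl), −5 (2410006H16Rik) and −9 (Kansl2) bases from the annotated start. A run counted here may begin before or after the start, so it does not place a host in that class. The run had 9 bases in Snhg12 and in 2410006H16Rik, 5 in Snhg3, 4 in Ncl and 2 in Kansl2. A run of at least 8 was present in 10 of the 38 hosts that the RefSeq promoter table holds (26.3%), against 15.8% of its 27025 genes. The NF-κB consensus, searched on both strands from 250 bases before to 50 bases after the start, matched in 2 of the 38 hosts (5.26%) and in 6.55% of all genes. The sequence TATAAA on the gene's strand, 40 to 16 bases before the start, was found in 1 of the 38 (2.63%) and in 2.41% of all genes. These counts describe letters in a window and not binding or use of a site.

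In aged WT muscle most H/ACA snoRNA genes read higher than in young WT muscle, and the C/D (Snord) genes were nearer to no difference. Of the 24 H/ACA genes above the filter, 22 had the higher mean in aged WT muscle, with a median difference of 0.37 (log2; interquartile range 0.14 to 0.55). Of the 32 C/D genes, 23 had the higher mean, with a median of 0.11 (interquartile range 0.00 to 0.31). Rnu3a, a C/D RNA counted in neither set, had the highest difference of any member above the filter (1.15). The median of all genes tested was 0.01, and 52.2% of them had the higher mean in aged WT muscle. No difference between the classes was tested. No snoRNA gene passed limma's test over all genes in this comparison, where 24 genes of 13364 did (0.0973% higher and 0.0823% lower). At an unadjusted p under 0.05, 14 members were higher and 1 was lower, against 9.26% and 6.41% of all genes. The methods' t-test passed none with the same adjustment. That label stands for the t-test that the paper names for pairs of groups in listed figure panels. For the arrays the paper names no test and chose candidates by fold change. Both aged WT arrays lay above all 3 young WT arrays in 32 of the 57 members (17 H/ACA, 14 C/D and Rnu3a), where 22.0% of all genes did, and below them in 2, where 15.7% did. A difference of at least 0.5 higher was reached by 11 members, 8 of them H/ACA, against 1.43% of all genes. Counts over members above the filter can be raised by genes that passed through the higher group. Over all 74 members, 59 had the higher mean in aged WT muscle, and the medians were 0.34 for the 26 H/ACA and 0.11 for the 47 C/D genes. In whole tissue less RNA per cell and fewer cells of a type cannot be told apart, and the array cannot tell a mature snoRNA from its unspliced host transcript.

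The result of the test depended on which arrays set the spread. When the 5 young and aged WT arrays were fitted alone, 5 members passed: Rnu3a (adjusted p = 0.0333 from limma), Snora44 (0.0314), Snora62 (0.0485), Snora73b (0.0421) and Snora74a (0.0434), all higher in aged WT muscle. In that fit 162 genes of all passed, 97 higher (0.726%) and 65 lower. The differences are the same in both fits, and the spread is not: in these 5 genes the aged MISR arrays lay 0.80 to 1.61 apart. Snora74a was named after its values were seen.

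**Figure D1:**
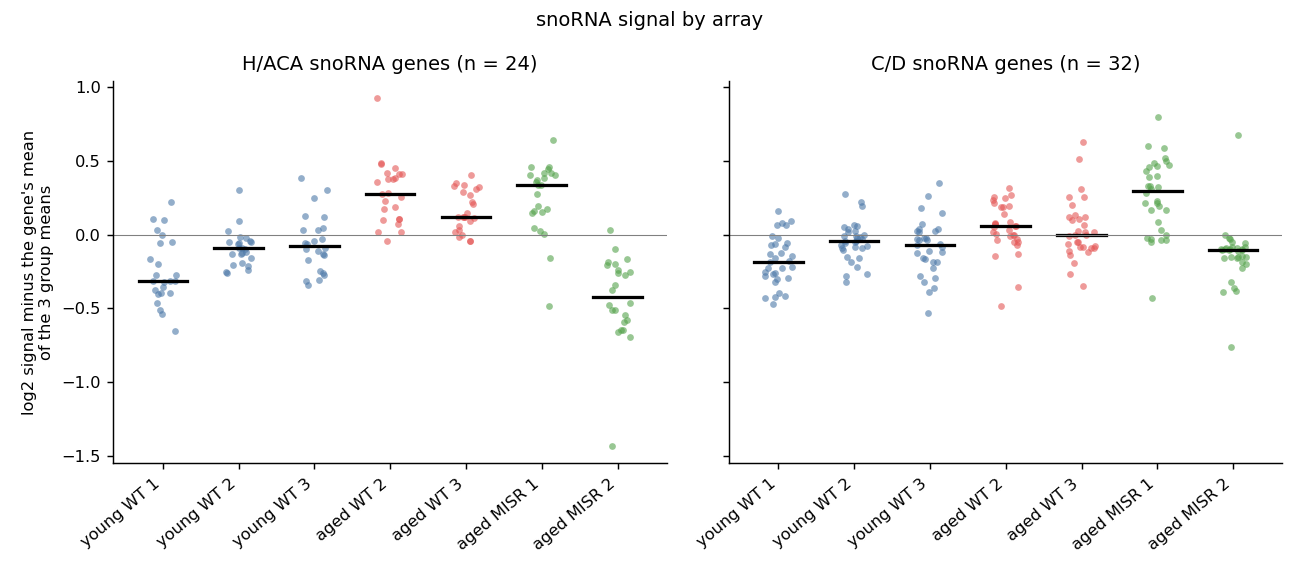
Signal of each snoRNA gene above the filter in each array (log2, minus the gene's mean of the 3 group means), for 24 H/ACA and 32 C/D genes; points are genes and black bars are medians. The H/ACA medians were −0.31 to −0.08 (young WT), 0.28 and 0.12 (aged WT) and 0.34 and −0.42 (aged MISR).

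Among the RNAs that take part in cutting the ribosomal precursor, U3 and U17 had higher means in aged WT muscle without passing the test. Rnu3a, whose U3 RNA is needed to release the small subunit's RNA, read 6.03, 6.18 and 6.45 (young WT), 7.34 and 7.39 (aged WT) and 7.52 and 5.91 (aged MISR). Both aged WT arrays and aged MISR replicate 1 stood above the young arrays, and aged MISR replicate 2 was the lowest of all. The difference of aged WT versus young WT muscle was 1.15 (standard error 0.41, adjusted p = 0.253 from limma). U17 is an H/ACA RNA that serves small-subunit processing, as its yeast counterpart does, and Snora73a and Snora73b are near-identical copies of it whose signals the array may share. Snora73a read 8.15, 8.39 and 8.46 (young WT), 8.98 and 8.93 (aged WT) and 8.70 and 7.88 (aged MISR), and Snora73b 8.85, 8.99 and 9.01 (young WT), 9.60 and 9.47 (aged WT) and 9.27 and 8.47 (aged MISR). Each copy had the aged WT arrays above and aged MISR replicate 2 below every other array. Against young WT muscle their differences in aged WT muscle were 0.62 (standard error 0.22, adjusted p = 0.253 from limma) and 0.59 (standard error 0.21, adjusted p = 0.249 from limma).

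The other processing RNAs were different. Snord118 encodes U8, needed in vertebrates for the RNAs of the large subunit, and read 5.96, 6.09 and 6.06 (young WT), 5.89 and 6.13 (aged WT) and 6.22 and 5.84 (aged MISR). Its groups overlapped, with a difference of −0.03 (standard error 0.12, adjusted p = 0.936 from limma) in aged WT versus young WT muscle. The signals of Snord118 lay near the array medians of 5.86 to 5.93 and reached them in 5 arrays, so little is read from this difference. Snord22 (U22), which acts in small-subunit processing in frog oocytes, read 6.20, 6.07 and 6.20 (young WT), 6.28 and 6.47 (aged WT) and 6.20 and 6.07 (aged MISR). Its aged WT arrays stood above the rest by a small amount, with a difference of 0.22 (standard error 0.09, adjusted p = 0.287 from limma) from young WT muscle. Snord13 (U13), which in human cells guides an acetylation of the small-subunit RNA, read 6.53, 7.0 and 7.13 (young WT), 6.30 and 6.44 (aged WT) and 6.74 and 7.46 (aged MISR). It ran the other way, and the aged WT arrays lay below all young arrays and below both aged MISR arrays, and aged MISR replicate 2 was its highest array. Its difference was −0.52 (standard error 0.24, adjusted p = 0.351 from limma) in aged WT against young WT and 0.73 (standard error 0.26, adjusted p = 0.351 from limma) in aged MISR versus aged WT muscle.

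Among guide RNAs, 6 H/ACA and 2 C/D genes differed by at least 0.5 in aged WT versus young WT muscle. Snora62, in the host Rpsa (a ribosomal protein), read 7.54, 7.82 and 7.83 (young WT), 8.56 and 8.41 (aged WT) and 8.53 and 7.50 (aged MISR). Snora44, in the non-coding host Snhg12, read 8.90, 9.05 and 8.96 (young WT), 9.71 and 9.62 (aged WT) and 9.71 and 8.83 (aged MISR). In both genes the aged WT arrays and aged MISR replicate 1 formed one level, and the young arrays with aged MISR replicate 2 a lower one. Their differences in aged WT versus young WT muscle were 0.75 (standard error 0.27, adjusted p = 0.257 from limma) and 0.70 (standard error 0.22, adjusted p = 0.215 from limma). Snora74a (U19), in the non-coding host Snhg4, followed the same order, with 8.04, 8.14 and 8.22 (young WT), 8.77 and 8.64 (aged WT) and 8.76 and 7.69 (aged MISR), and a difference of 0.57 (standard error 0.27, adjusted p = 0.353 from limma). Snora75 (U23), in the host Ncl (nucleolin), read 9.81, 10.18 and 10.57 (young WT), 11.19 and 10.61 (aged WT) and 10.61 and 8.84 (aged MISR). Aged WT replicate 2 lay above all young arrays and replicate 3 just above them, and aged MISR replicate 2 was far below all others. The difference was 0.71 (standard error 0.49, adjusted p = 0.508 from limma), with the largest spread of any member (pooled standard deviation within groups 0.71). Snora69 in Rpl39 and Snora2b in Kansl2 were also among the 5 most variable members (0.41 and 0.44), with differences of 0.52 and 0.30. In aged WT versus young WT muscle Snora47 was the lower H/ACA gene, by −0.26, whose arrays did not overlap, and Snora68 differed by −0.04 with overlap.

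**Figure D2:**
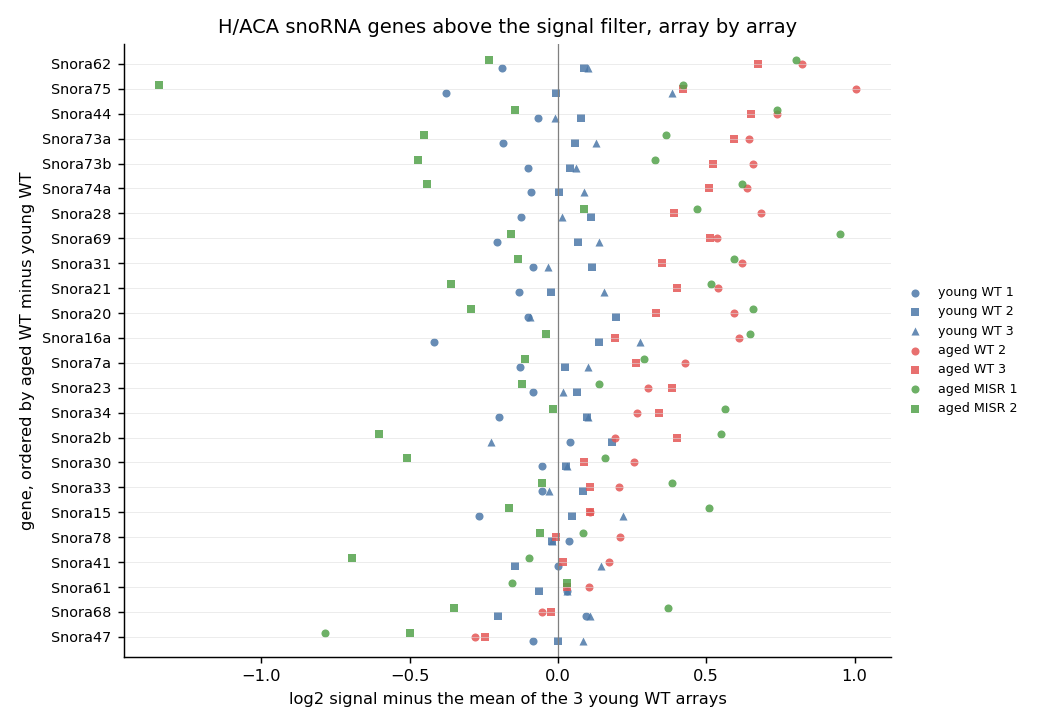
Signal of the 24 H/ACA genes above the filter in each of the 7 arrays (log2, minus the mean of the 3 young WT arrays), ordered by the difference of aged WT versus young WT muscle. Aged WT arrays (red) lie right of the young arrays (blue) in 17 of 24 genes, and aged MISR replicate 2 (green squares) is the lowest array in 16.

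C/D guide RNAs were more mixed. Snord17, in the host Snx5, read 8.33, 8.67 and 8.48 (young WT), 8.95 and 9.27 (aged WT) and 9.34 and 7.99 (aged MISR). The aged WT arrays and aged MISR replicate 1 were above all young arrays and aged MISR replicate 2 was below them, and the difference of aged WT versus young WT muscle was 0.62 (standard error 0.35, adjusted p = 0.433 from limma). Snord15a, in the ribosomal protein gene Rps3, read 6.36, 6.46 and 6.56 (young WT), 6.68 and 7.30 (aged WT) and 6.65 and 6.52 (aged MISR). Aged WT replicate 3 was well above replicate 2, and the mean difference was 0.53 (standard error 0.17, adjusted p = 0.212 from limma). The highest C/D members by mean difference after these were Snord42b, Snord16a and Snord65 (0.43, 0.41 and 0.41), and their aged WT arrays lay above the young ones. Snord35a belongs to the cluster in the ribosomal protein gene Rpl13a whose RNAs act in the response to lipid overload in hamster cells and mice. It read 8.84, 9.23 and 9.08 (young WT), 9.52 and 9.23 (aged WT) and 9.81 and 9.20 (aged MISR), highest in aged MISR replicate 1, with overlap between young and aged WT arrays and a difference of 0.32 (standard error 0.20, adjusted p = 0.462 from limma). The lower mean in aged WT muscle was found in 9 C/D genes, with Snord13 at −0.52 and the other 8 between −0.18 and 0.00.

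**Figure D3:**
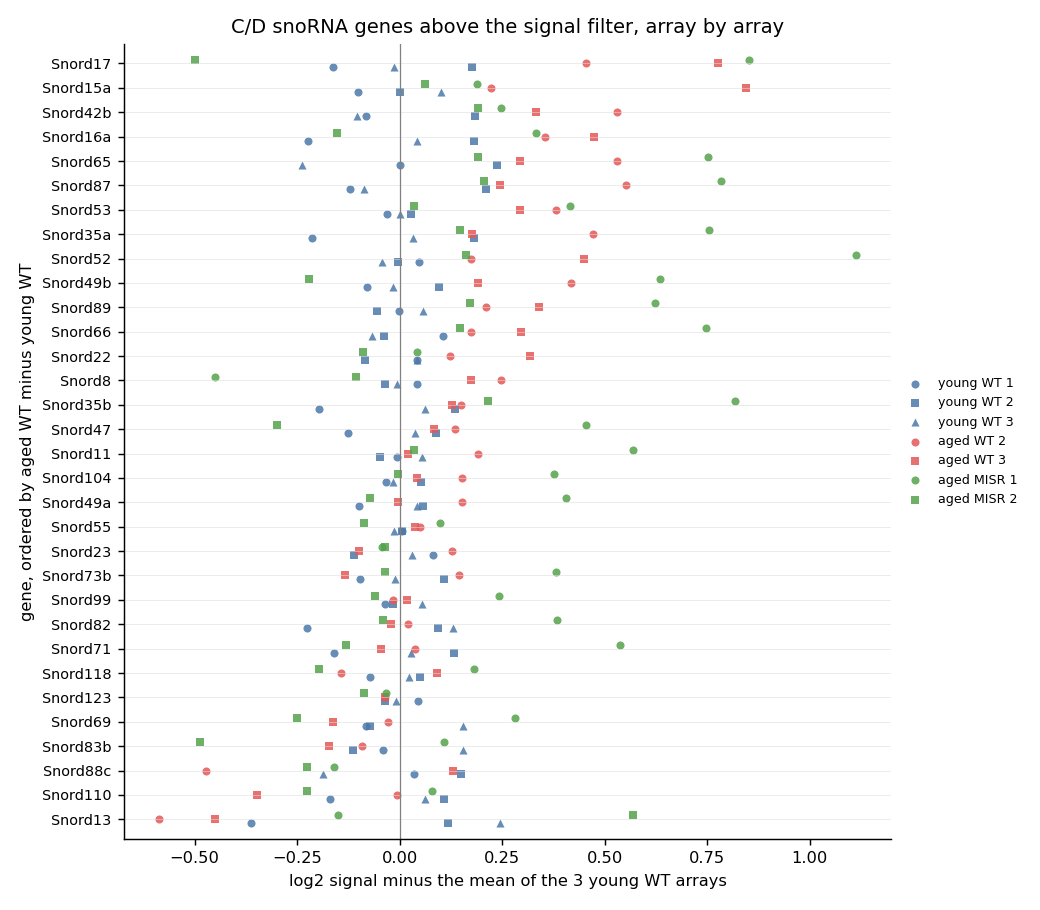
Signal of the 32 C/D genes above the filter in each of the 7 arrays (log2, minus the mean of the 3 young WT arrays), ordered by the difference of aged WT versus young WT muscle. Aged MISR replicate 1 (green circles) is the highest array in 21 of 32 genes.

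The aged MISR arrays differed from each other in almost all snoRNA genes. Replicate 1 read above replicate 2 in 52 of 57 members, by a median of 0.56 (H/ACA 0.71, C/D 0.44), while the median over all genes was 0.00. The median standard deviation between the aged MISR arrays was 0.408 for members and 0.0884 for all genes. In the aged WT arrays it was 0.0958 and 0.0719, and in the young WT arrays 0.116 and 0.0682. Relative to each gene's mean of the group means, the median over the 57 members was −0.23, −0.07 and −0.07 (young WT), 0.10 and 0.09 (aged WT) and 0.32 and −0.19 (aged MISR). Aged MISR replicate 2 was the lowest of the 7 arrays in 27 members and in 12.3% of all genes, and replicate 1 was the highest in 30 members and in 23.6% of all genes. Young WT replicate 1 was the lowest array in 16 further members and in 14.7% of all genes. By class, replicate 2 was the lowest array in 16 of 24 H/ACA genes and 10 of 32 C/D genes, and replicate 1 the highest in 8 and 21. Where members ran the other way, they were Snora47, Snora61, Snord8, Snord13 and Snord23, with replicate 2 above replicate 1.

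Transcripts of other cells moved with the same arrays. In aged MISR replicates 1 and 2, array medians were 0.92 and −1.35 for 9 neutrophil markers, 0.96 and −0.43 for 5 platelet markers, 1.01 and −0.47 for 4 markers of proliferating cells, and −0.31 and 0.80 for 6 adipocyte markers. Over the young and aged WT arrays these lists ranged from −0.45 to 0.52, −0.53 to 0.21, −0.21 to 0.11 and −0.20 to −0.03. Macrophage markers (9 genes) read 0.53 and 0.40 in the aged MISR arrays, 0.02 and −0.57 in the aged WT arrays and −0.28 to −0.16 in the young WT arrays. The median of the skeletal muscle markers was 0.01 and −0.04 in the aged MISR arrays, and single markers of the list stood further apart. Myh2, the myosin heavy chain of IIa fibers, read 12.33, 12.26 and 12.24 (young WT), 11.44 and 11.46 (aged WT) and 11.58 and 12.57 (aged MISR). Myh1, the myosin heavy chain of IIx fibers, read 12.87, 12.91 and 12.84 (young WT), 12.53 and 12.58 (aged WT) and 12.64 and 13.03 (aged MISR). Mb, myoglobin, read 12.85, 12.84 and 12.77 (young WT), 12.21 and 12.49 (aged WT) and 12.51 and 12.99 (aged MISR). In these 3 genes the aged WT arrays and aged MISR replicate 1 lay below the young arrays and aged MISR replicate 2 above them, with differences of −0.82, −0.32 and −0.47 in aged WT versus young WT muscle that did not pass the test. The other 7 differed by −0.05 to 0.13 in that comparison. The part of these cells and of fiber types in the snoRNA values was not tested.

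Against aged WT muscle, aged MISR muscle had lower means in most H/ACA genes and in fewer C/D genes, and the 2 aged MISR arrays taken singly gave unlike results. Of 24 H/ACA genes 21 had the lower mean (median −0.30), and of 32 C/D genes 14 (median 0.07). The median of all genes was 0.01, and 45.8% of them had the lower mean. Of the 57 members 0 passed the test in either direction (background 0.0524% higher and 0.0% lower), 1 was higher and 7 were lower at an unadjusted p under 0.05 (background 8.08% and 4.09%), and the methods' t-test passed none of them. Both aged MISR arrays lay below both aged WT arrays in 10 members, where 15.4% of all genes did, and above them in 2, where 20.3% did. Without aged MISR replicate 1 all 24 H/ACA and 30 of 32 C/D genes had the lower mean (medians −0.65 and −0.15), and without replicate 2 the medians were 0.04 and 0.30. The share of all genes with the lower mean in these settings is not given here. For all genes tested, array medians were taken relative to each gene's mean of the group means. They were −0.0119, 0.0001 and −0.0305 (young WT), −0.0036 and 0.0059 (aged WT) and 0.016 and 0.006 (aged MISR). With 1 array in the aged MISR group, that array is taken to vary like the other groups.

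The members with the most negative differences in aged MISR versus aged WT muscle and no overlap were Snora73b at −0.66 (standard error 0.23, adjusted p = 0.322 from limma) and Snora73a at −0.66 (standard error 0.24, adjusted p = 0.352 from limma). Snora41, in the translation factor gene Eef1b2, read 7.16, 7.01 and 7.30 (young WT), 7.33 and 7.18 (aged WT) and 7.06 and 6.47 (aged MISR), and was −0.49 (standard error 0.19, adjusted p = 0.37 from limma) in aged MISR versus aged WT muscle. Snord8, in the host Chd8, read 8.56, 8.48 and 8.51 (young WT), 8.76 and 8.69 (aged WT) and 8.07 and 8.41 (aged MISR). Its difference was −0.49 (standard error 0.11, adjusted p = 0.175 from limma), and it was lower in both aged MISR arrays than in any other array. Snord15a followed at −0.41 (standard error 0.19, adjusted p = 0.439 from limma). Higher without overlap were Snord13, given above, and Snord35b, which read 6.73, 7.06 and 6.99 (young WT), 7.08 and 7.05 (aged WT) and 7.74 and 7.14 (aged MISR) and differed by 0.38 (standard error 0.19, adjusted p = 0.483 from limma). Without aged MISR replicate 1, 5 members passed as lower than in aged WT muscle: Rnu3a, Snora44, Snora73a, Snora73b and Snora74a, by −1.46 to −0.84, with adjusted p-values of 0.0383 to 0.0499 from limma, where 0.105% of all genes passed as lower. Without replicate 2, Snord8 was the 1 member that passed (−0.66, adjusted p = 0.0334 from limma), where 0.112% of all genes passed as lower.

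Against young WT muscle, 1 member passed in aged MISR muscle, where 0.135% of all genes were called lower and 0.456% higher. Snora47, an H/ACA RNA in the host Zbed3, read 6.77, 6.85 and 6.94 (young WT), 6.57 and 6.61 (aged WT) and 6.07 and 6.35 (aged MISR). The levels were ordered young WT, aged WT, aged MISR with no overlap. Its difference was −0.64 (standard error 0.10, adjusted p = 0.0492 from limma). The call was lost when any 1 array other than aged MISR replicate 2 was left out (adjusted p = 0.0875 to 0.208 from limma). The methods' t-test passed none of the members. The classes were closer here than in aged WT muscle, with medians of 0.08 in H/ACA and 0.17 in C/D genes and 0.04 over all genes. Both aged MISR arrays lay above all young arrays in 6 members, all C/D, where 24.4% of all genes did, and below them in 2, where 13.6% did. At an unadjusted p under 0.05, 6 members were higher and 2 were lower, against 11.8% and 6.97% of all genes. Highest without overlap were Snord52 (0.64), in 1110038B12Rik, Snord35b (0.52), Snord66 (0.45), in the translation factor gene Eif4g1, Snord89 (0.40) and Snord53 (0.22), in Wdr43. Snord52 read 6.51, 6.46 and 6.42 (young WT), 6.64 and 6.91 (aged WT) and 7.58 and 6.62 (aged MISR). Aged MISR replicate 1 was well above the rest, and replicate 2 lay just below the aged WT arrays and above the young ones. Without aged MISR replicate 2, 13 members passed against young WT muscle, 11 higher and 2 lower (Snora47 and Snord8), where 2.46% of all genes passed as higher and 1.03% as lower. Without replicate 1 none of the members passed, where 36 of all genes did. Against the same young arrays the H/ACA median was 0.45 without replicate 2 and −0.20 without replicate 1, where 22 of 24 genes had the lower mean. The share of all genes with the lower mean in that setting is not given here.

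Among the 5 hosts with more than 1 member, the members' differences in aged WT versus young WT muscle were close to each other in 2 and further apart in 3. No difference between members of a host was tested. Snhg12 hosts Snora16a, Snora44, Snora61 and Snord99. In aged WT versus young WT muscle these differed by 0.40, 0.70, 0.07 and 0.00, and the host by 0.32 (adjusted p = 0.15 from limma). Unlike those of Snora44, the young and aged WT arrays of Snora16a overlapped (standard error 0.27, adjusted p = 0.501 from limma). Within Ncl the H/ACA gene Snora75 differed by 0.71 and the C/D gene Snord82 by 0.00, and the host by 0.20. Snord82 read 10.84, 11.16 and 11.20 (young WT), 11.09 and 11.05 (aged WT) and 11.45 and 11.03 (aged MISR), with overlapping groups. Snora75 was −1.18 and Snord82 0.17 in aged MISR versus aged WT muscle. Within Snhg3 the copies of U17 were alike at 0.62 and 0.59, and the host was at 0.20. Within 2410006H16Rik the C/D genes Snord49a, Snord49b and Snord65 differed by 0.07, 0.30 and 0.41 and the host by 0.47. Within Kansl2 Snora2b and Snora34 differed by 0.30 and 0.30 and the host by 0.22. In aged MISR versus aged WT muscle the Kansl2 members were further apart, with Snora2b at −0.32 and Snora34 at −0.03.

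**Figure D4:**
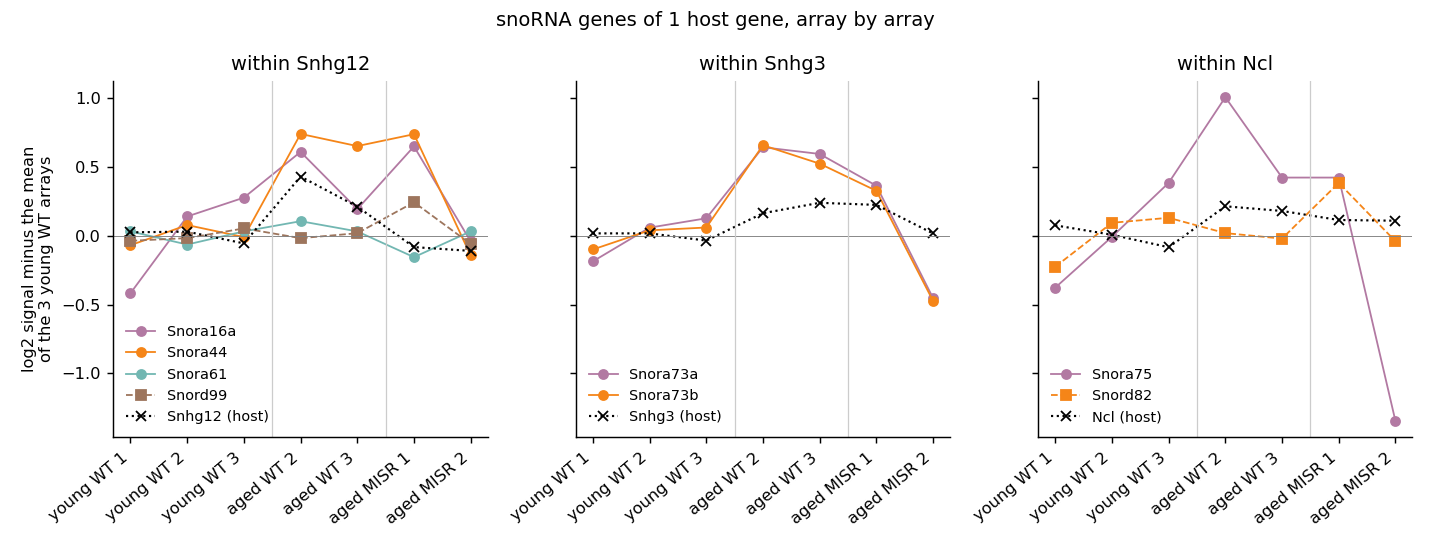
Signal in each of the 7 arrays (log2, minus the mean of the 3 young WT arrays) of the snoRNA genes within Snhg12, Snhg3 and Ncl and of the host genes themselves (dotted, crosses); solid lines are H/ACA and dashed lines are C/D genes. Snora44 parts from Snora61 and Snord99 within Snhg12, and Snora75 parts from Snord82 within Ncl. Snora16a has the higher mean in aged WT muscle, with overlap between young and aged WT arrays.

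The members that have a tested host were also set beside these hosts by class. For 21 H/ACA genes with a tested host, the median difference of aged WT versus young WT muscle was 0.40 for the snoRNA genes and 0.20 for their hosts. For 23 C/D genes it was 0.11 and 0.14. In aged MISR versus aged WT muscle the medians were −0.32 and −0.08 for the H/ACA genes and their hosts and −0.02 and −0.03 for the C/D genes and theirs. None of the 36 tested hosts passed the test in any comparison, with a largest absolute difference of 0.47. A snoRNA gene and its host share the array, and no test of their difference was made.

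In the comparisons of aged WT with young WT and of aged MISR with aged WT muscle, the size of the difference went with RNA length, as a description. H/ACA RNAs are longer than most C/D RNAs: the annotated length had a median of 120 nt in the 24 H/ACA genes and 73 nt in the 32 C/D genes. Across the 57 members, Spearman's rho between annotated length and the difference was 0.45 in aged WT versus young WT muscle and −0.65 in aged MISR versus aged WT muscle, as a description across genes that share the arrays and are no independent replicates. In aged MISR versus young WT muscle rho was −0.18 over the members, 0.05 in H/ACA and −0.31 in C/D genes. Within the classes rho in the first pair of comparisons was 0.43 and −0.37 for H/ACA genes and 0.06 and −0.37 for C/D genes. The 4 C/D genes of 100 nt or longer (Snord15a, Snord17, Snord22 and Snord118) had medians of 0.38 and −0.33, and the 28 shorter ones of 0.10 and 0.09. The 3 H/ACA genes annotated under 100 nt had medians of 0.07 and −0.13, and the 21 longer ones of 0.40 and −0.33. U3, at 212 nt, lay at the upper end in both length and difference. Class and length go together here and cannot be told apart, and whether the recovery or labelling of short RNAs differed between samples was not tested. The length of the part that each feature's probes cover is not stated.

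**Figure D5:**
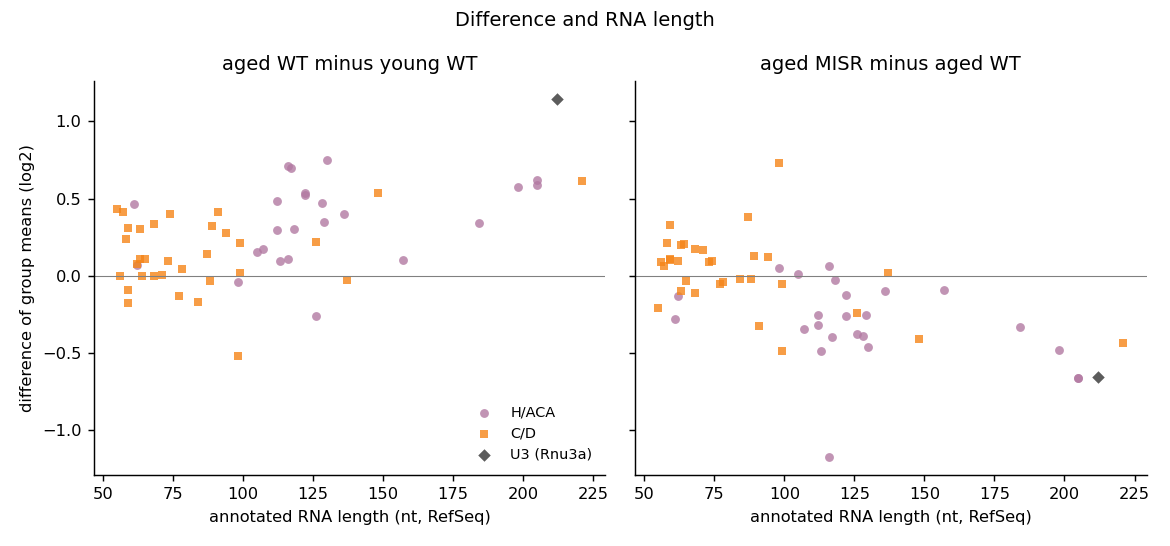
Difference of group means (log2) against the annotated RNA length (nt) for the 57 snoRNA genes above the filter, in aged WT versus young WT muscle (left) and aged MISR versus aged WT muscle (right); circles are H/ACA genes, squares C/D genes and the diamond is Rnu3a. Genes of 184 nt and longer lie at 0.34 to 1.15 on the left and at −0.66 to −0.33 on the right.

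mRNAs for proteins of the snoRNA particles differed by less than the H/ACA RNAs. All 6 tested genes of the H/ACA particle had the higher mean in aged WT muscle, with a median of 0.18. Gar1, a core protein, read 7.56, 7.65 and 7.40 (young WT), 7.86 and 7.69 (aged WT) and 7.75 and 7.40 (aged MISR), a difference of 0.24 in aged WT muscle, and the pseudouridine synthase Dkc1 differed by 0.19. Of 11 genes of the C/D particle and its assembly 8 had the higher mean (median 0.08), with the assembly factor Znhit6 at 0.25 and the core protein Nop56 at 0.14. That list was written with 12 genes, and the C/D methyltransferase Fbl is not among the 11 measured. Of 29 proteins of the U3 processome 21 had the higher mean (median 0.04), and of 11 subunits and factors of RNA polymerase I, which makes the ribosomal precursor, 9 (median 0.10). In aged MISR versus aged WT muscle the medians of these 4 lists were −0.05, −0.06, 0.00 and −0.06. None of their genes passed the test in any comparison.

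Host genes and other small RNAs gave a background for these values. Of 15 non-coding host genes 11 had the higher mean in aged WT muscle (median 0.20), and of 35 protein-coding host genes 29 (median 0.12), with 0 called. Within the list of non-coding hosts Zfas1 (0.43), Snhg5 (0.33) and Snhg6 (0.33) were the highest (2410006H16Rik, at 0.47, is not in this list), and Rian, an imprinted host of C/D RNAs, differed by −1.23 without passing. Of 15 other small structured RNAs 11 had the higher mean (median 0.12). Of these, 1 was called as lower: Terc, the telomerase RNA, which carries an H/ACA domain and binds the same core proteins, read 9.54, 9.61 and 9.39 (young WT), 8.24 and 8.38 (aged WT) and 8.99 and 9.36 (aged MISR). Both aged WT arrays lay below all others, and its difference from young WT muscle was −1.20 (standard error 0.12, adjusted p = 0.0348 from limma). The small Cajal body RNAs of this list, which guide the modification of spliceosomal RNAs, were Scarna2, Scarna6, Scarna10 and Scarna17, at 0.03, 0.34, 0.37 and 0.12. Rpph1, the RNA of ribonuclease P, had its lowest array in aged MISR replicate 2 (11.50 against 12.07 to 12.39 in the others). Precursors of microRNAs (133 tested) had a median of −0.07 in aged WT against young WT and −0.11 in aged MISR versus aged WT muscle.

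The 17 members below the filter had signals from 3.26 to 5.98. They were Snora19, Snora35 and 15 C/D genes, and their differences in aged WT versus young WT muscle ran from −0.17 (Snord88a) to 0.43 (Snord61). These signals lie near or below the array median, and no difference is read from them.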

How the data were processed

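Total RNA of whole skeletal muscle was hybridised to 7 Affymetrix gene arrays. The deposited log2 values are signals that the authors computed with RMA, the robust multi-array average, whose version is not stated. Features were named through the platform's gene table, in which 23521 of 41345 features had 1 symbol, and those with several symbols or none were left out. The 74 members all matched RefSeq (GRCm38.p6) by symbol, which gave RNA length and host, and promoter sequences are from RefSeq's table of the same build.

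Group means were fitted with limma 3.58.1 in R 4.3.3 (lmFit, eBayes, 4 residual and 3.13 prior degrees of freedom). The fit was tested on simulated data with known differences. The members, the gene lists and the tests were chosen with earlier results of these data known. Named in the text were RNAs with a role in processing the ribosomal precursor or a known role beyond it, in each comparison the 5 highest and 5 lowest differences without overlap, members called, the 5 most variable members and up to 4 genes of each list. The alternatives are a second quantile normalization, centring, other filters, averaging a gene's features, omission of single arrays and the replicate number as a block. Further ones are another variance prior, array weights, fits restricted to a pair of groups and a threshold of 0.1. The last is the methods' t-test, the 2-group test that the paper names for figure panels and not for the arrays. Arrays give no count depth, and the 2 or 3 arrays of a group limit the precision. Figures were drawn with matplotlib 3.10.9 in Python 3.11.15.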

Additional observations from a re-analysis of the deposited data

Results flagged for a closer look

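Outside the comparisons, 4 features were above all young WT arrays in both aged WT or both aged MISR arrays with a mean difference of at least 0.5 (log2). The second feature of Snora33 read 6.10, 6.49 and 6.36 in the young WT arrays, 7.73 and 7.52 in the aged WT arrays and 7.58 and 5.68 in the aged MISR arrays, so that aged WT was 1.31 (log2) above young WT muscle. The feature that stood for Snora33, chosen for its higher mean, differed by 0.16, and the features thus disagree. A feature that the table gives to 4 copies of U3 (Rnu3b1 to Rnu3b4) stood 0.74 above young WT in aged WT muscle, with 9.18, 9.48 and 9.46 against 10.29 and 9.94, and its aged MISR arrays read 10.16 and 8.99. A feature given to both Snora81 and its host Eif4a2 was 0.82 higher in aged WT muscle, and its aged MISR arrays read 6.99 and 6.02. A feature given to Gm26504, Snord116l1 and Snord116l2 was 0.60 higher in aged MISR than in young WT muscle. No feature with several symbols can be given to 1 gene.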

How the results depend on the processing

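Medians of the snoRNA classes in aged WT versus young WT muscle kept their sign and stayed within the spread between arrays under every alternative run. The count of all genes called there was 24, and became 156 at an adjusted p under 0.1, 49 with arrays centred on their medians, 0 without the filter, 57 with a stricter filter, 88 with another variance prior, 118 with array weights, 162 in a fit of the 2 groups and 1 with the methods' t-test. Leaving out 1 array gave 0 to 162. Of the members, 5 passed in the fit of the 2 groups and 0 to 5 without 1 array, the 5 when either aged MISR array was left out. For aged MISR versus aged WT muscle the 7 calls became 59 at an adjusted p under 0.1, 15 with centring, 4 without the filter, 2 with array weights, 0 in a fit of the 2 groups and 3 with the methods' t-test, and 0 to 113 without 1 array. Members passing numbered 0 to 5 without 1 array. The median over the 57 members, −0.09 in the fit reported, was −0.30 without aged MISR replicate 1 and 0.21 without replicate 2, that of H/ACA genes was −0.65 and 0.044, and that of C/D genes −0.15 and 0.30. For aged MISR versus young WT muscle the 79 calls became 280 at an adjusted p under 0.1, 34 with a second quantile normalization, 128 with centring, 21 without the filter, 26 with array weights, 13 in a fit of the 2 groups and 6 with the methods' t-test, and 0 to 466 without 1 array. The 1 member called, Snora47, became 0 with a second quantile normalization, without the filter, with array weights, in a fit of the 2 groups and with the methods' t-test, and 0 to 13 members passed without 1 array. The member median was −0.11 without aged MISR replicate 1 and 0.39 without replicate 2, that of C/D genes −0.050 and 0.38, and that of H/ACA genes −0.20 and 0.45. Where an aged MISR or aged WT array is left out, the other is taken to vary like the other groups. The cause was not tested.

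With the replicate number as a replicate block 0 genes and 0 members passed in each comparison. The labels number the replicates alike, but same-numbered arrays did not deviate together (correlations of −0.224 to −0.008), so the numbers name the arrays and do not pair them. No result turned its direction while called.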

Other observations

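Features that name a snoRNA beside other symbols numbered 47, and with second features of members they held 31 different sets of values, 23 of them above the filter. Of these 23, 20 had a higher mean in aged WT muscle than in young muscle (median 0.19), 13 of them with both aged WT arrays above all young ones. In 21 of 23 aged MISR replicate 1 read above replicate 2 (median 0.36). A feature given to Snord14e and to its host Hspa8, a heat shock protein gene, ran the other way, with 10.11, 10.09 and 9.77 in the young WT arrays, 9.77 and 9.36 in the aged WT arrays and 9.41 and 9.88 in the aged MISR arrays.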
